A study of Mus musculus with 23 samples.

Results

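The subunits of the mitochondrial respiratory chain and of ATP synthase that are encoded in the nucleus were followed in the hippocampus of young and middle-aged mice. The members were chosen by gene symbol: every gene whose array annotation begins with Nduf, Sdha to Sdhd, Uqcr, Cox4 to Cox8 or Atp5, together with Cycs and Cyc1. This gave 75 genes among the 8251 genes that had a probe set with 1 symbol, namely 29 of complex I, 4 of complex II, 8 of complex III, 15 of complex IV, 14 of complex V, cytochrome c itself (Cycs), and 4 assembly factors that share a prefix with the subunits but are not part of the finished complexes (Ndufaf1, Ndufaf4, Sdhaf1 and Sdhaf2). Total RNA was taken from whole hippocampi of mice of the C57BL/6JNIA strain, all male, 14 of them 15 months and 9 of them 2 months old, with 1 array per mouse and no genetic change or drug in either group. All mice had learned the Morris water maze, first with a visible and then with a hidden platform, so a trained state is common to both ages and no untrained mice were compared. The labels call the mice biological replicates.

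Oxidative phosphorylation is the last stage of respiration. Complexes I and II pass electrons from NADH and succinate to ubiquinone, complex III passes them on to cytochrome c, and complex IV hands them to oxygen, while complexes I, III and IV pump protons whose return flow drives ATP synthase, complex V. Neurons depend on this supply to restore ion gradients after firing, and a fall of respiratory capacity is a recurrent theme in work on brain ageing. Apart from complex II, each complex also holds subunits encoded in mitochondrial DNA, which the symbols above do not cover.

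The promoters of the members show a feature that the choice by symbol did not use. NRF1 (nuclear respiratory factor 1) is a transcription factor known for binding promoters of many respiratory genes. Promoter windows from 250 bases before to 50 bases after a start site were matched for 61 of the 75 members (RefSeq, GRCm38.p6). The 8-letter core of the NRF1 motif, GCATGCGC or its reverse complement GCGCATGC, was found for 11 of the 61 member genes and 16.7% of their 66 windows, against 824 of all 27025 genes with a window (3.05%) and 2.71% of all windows. The letters CCGGAAGT or ACTTCCGG, bound by the ETS family to which the respiratory regulator GABPA belongs, were found for 4 of the 61 members (6.56%) and for 4.31% of all genes. A match is a description of the letters, either orientation counted, and no binding was measured. The stretches around the NRF1 core are shown for Cycs and for members of complexes I, II, IV and V and an assembly factor, because these genes stand for the steps compared below. They are written 5′ to 3′ on the strand of the gene, with the core in capitals; where 10 letters are in capitals, a match and its reverse complement overlap.
Ndufa6, complex I, chr15:82354345-82354396, minus strand: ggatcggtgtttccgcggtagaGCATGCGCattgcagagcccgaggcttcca
Sdhb, complex II, chr4:140961195-140961246, plus strand: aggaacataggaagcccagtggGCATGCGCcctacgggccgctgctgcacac
Cox6a1, complex IV, chr5:115349089-115349142, minus strand: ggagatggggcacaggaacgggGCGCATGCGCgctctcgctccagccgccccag
Atp5l, complex V, chr9:44920953-44920992, minus strand: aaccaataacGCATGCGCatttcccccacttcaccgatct
Cycs, chr6:50566600-50566651, minus strand: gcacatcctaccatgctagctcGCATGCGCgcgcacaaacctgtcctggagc
Ndufaf4, assembly factor, chr4:24897948-24898001, plus strand: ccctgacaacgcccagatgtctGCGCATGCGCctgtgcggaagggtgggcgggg

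The core lay close to the start in Sdhb (54 to 47 bases before it), Cycs (60 to 53 bases before) and Ndufa6 (83 to 76 bases before), and farther away in Ndufaf4 (113 to 104, with another match just after the start), Cox6a1 (162 to 153) and Atp5l (240 to 233). In complex III it crossed the start of Uqcr11 and lay after that of Uqcrc1. The other members with the core were Ndufa8, Atp5g2 and Atp5k.

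Transcripts of the oxidative phosphorylation subunits differed little between the ages, and no member passed the test. Signals are MAS5 values, a summary of the probes of a probe set on a linear scale that the authors had scaled per array, and changes are differences of log2(signal + 16), 15-month minus 2-month. Of the 75 members 68 were bright enough to be tested, and 0 of these were called at a false discovery rate of 0.05 (limma with Benjamini-Hochberg adjustment over 7453 probe sets, lowest adjusted p of a member 0.250), where 0.376% of all tested probe sets were called, 0.335% as higher and 0.0403% as lower. At an unadjusted p under 0.05 the count was 4 higher and 0 lower among the 68 members, against 5.89% higher and 6.51% lower of all tested probe sets, and a Mann-Whitney test with the same adjustment also called 0. Over the other settings tried the unadjusted count was 3 to 6 higher and 0 to 3 lower, with 4 higher and 3 lower after quantile normalisation. Log2 changes of the tested members ran from -0.24 (Cox6b1) to 0.31 (Ndufaf4) with a median of -0.0016, and 35 were below 0 and 33 above. The median of all tested probe sets was -0.02, and 55.0% of them were below 0. The groups overlapped for each of the 68 members. The share over all tested probe sets is not given here, so this overlap cannot be taken as particular to the members. In whole tissue, fewer cells of a type and less RNA per cell cannot be told apart.

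The measurements were precise enough to bound the change of most members. The 95% interval of the change lay inside 1.5-fold in either direction for 67 of the 68 members (98.5%, the exception being Cox6b2) and inside 1.25-fold for 56 (82.4%), against 92.0% and 57.9% of all tested probe sets. Many members are bright, which narrows their intervals. Among the 48 members with a mean signal of 1000 or more, 46 had an interval inside 1.25-fold (95.8%), against 82.2% of the 1989 tested probe sets above the same floor. Above that floor the members and the other probe sets were not matched for brightness. The median size of the change in these bright sets was 0.05 for the members and 0.07 for all. The plot of each member's change shows intervals that mostly cross 0, and in the plot against signal the bright members lie closest to the zero line. None of the 48 bright members had a change over 0.2 in size, against 4 of the 20 dimmer ones (Cox6b1, Sdhaf1, Cox6b2 and Ndufaf4). Of all tested probe sets, 171 of the 1989 bright and 1028 of the 5464 dimmer ones did. Larger changes among dimmer probe sets are therefore not particular to the members.

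**Figure D1:**
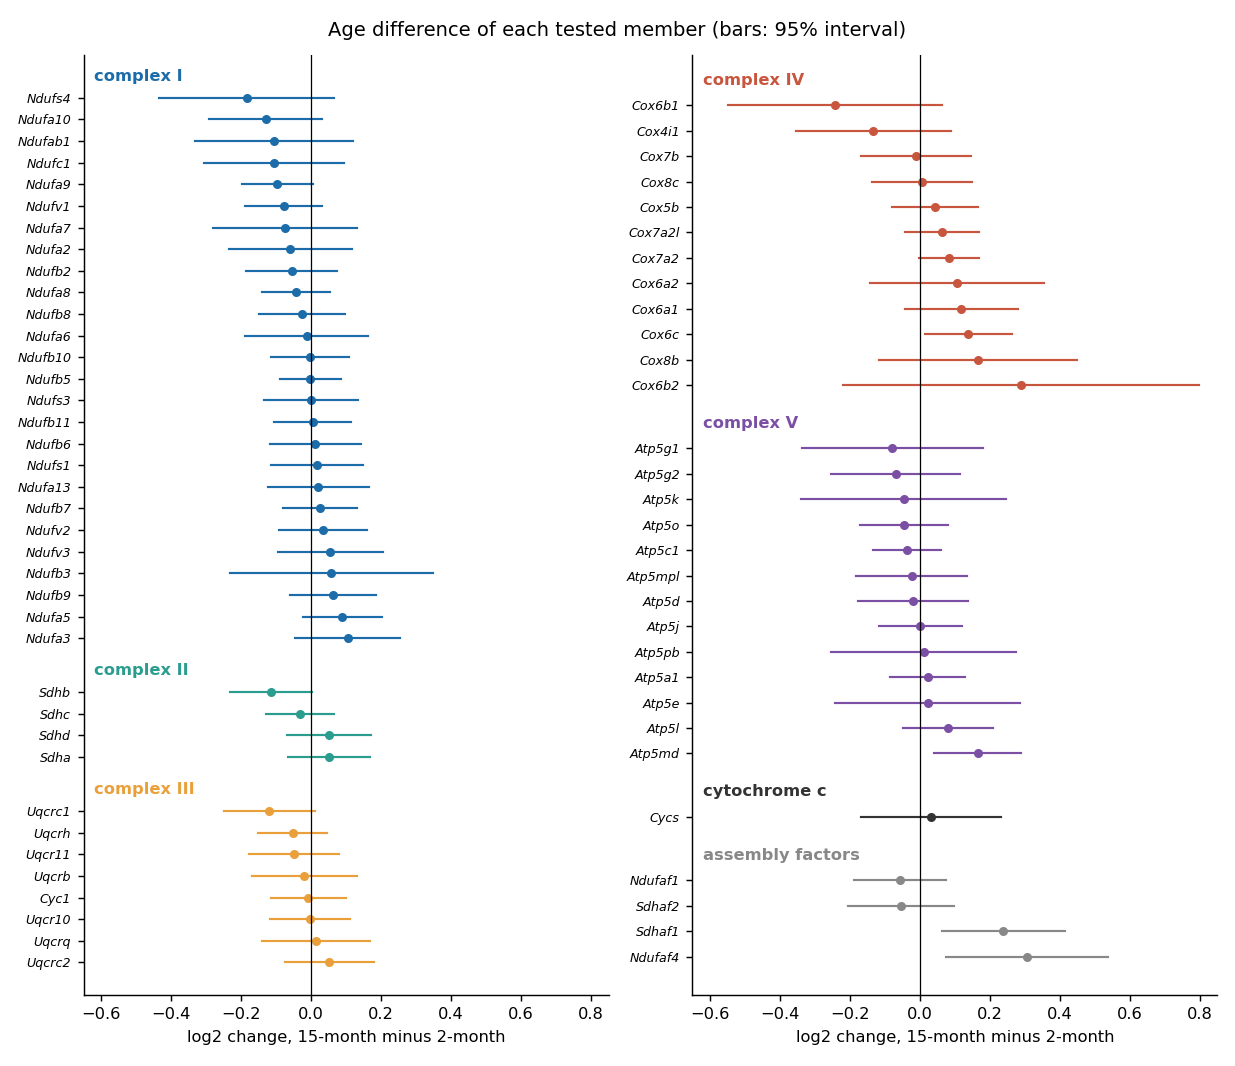
Log2 change between the ages (horizontal axis, 15-month minus 2-month, on the log2(signal + 16) scale) for the 68 tested members, grouped by complex; points are limma estimates and bars 95% intervals. The intervals of 4 members, Atp5md, Cox6c, Sdhaf1 and Ndufaf4, lie wholly above 0 before adjustment, and none lies wholly below.

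**Figure D2:**
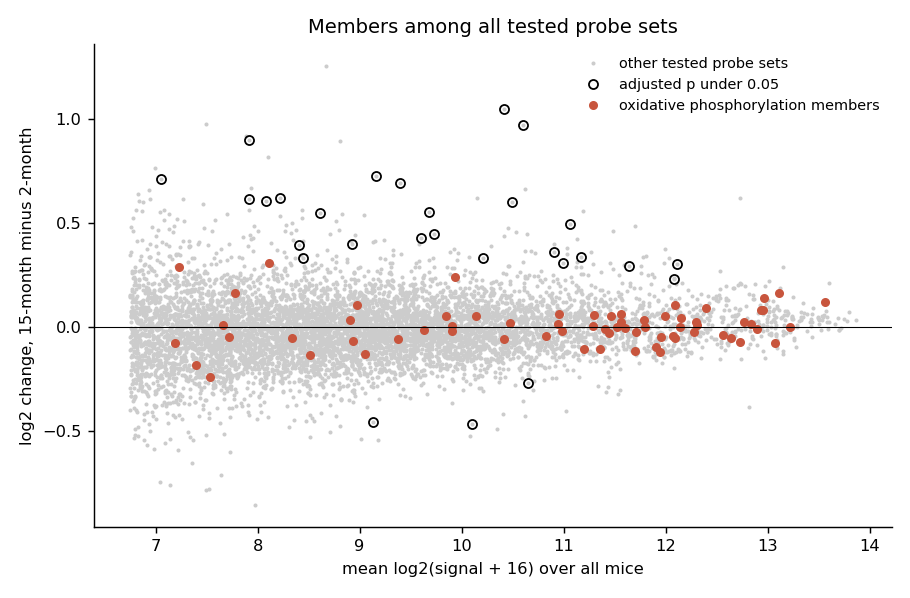
Log2 change between the ages (vertical axis) against mean log2(signal + 16) over the 23 mice (horizontal axis) for all 7453 tested probe sets in grey, the 28 called ones ringed in black and the 68 members in red. No red point is ringed, and the members lie between -0.24 and 0.31.

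Complex I, NADH dehydrogenase, is the entry point for electrons from NADH and the largest of the complexes. None of its 26 tested members was called, with a median log2 change of -0.0035, 15 below 0 and 11 above, and a range from -0.18 (Ndufs4, an accessory subunit) to 0.10 (Ndufa3, another accessory subunit). The 4 tested core subunits, which carry the electron path, lay within 0.10 of 0: the lowest was Ndufv1, the NADH-binding flavoprotein, at -0.08, and the highest Ndufv2, an iron-sulphur subunit beside it, at 0.03. The tested member of lowest p was Ndufa9, an accessory subunit. Its signal was 3656.2, 4000.3 and 4511.1 in the lowest, median and highest mouse of 2 months and 3272.1, 3717.7 and 4215.7 at 15 months. The ranges overlapped widely and 3 of the 14 older mice were above the 2-month mean, with a log2 change of -0.10 ± 0.05 (SE; 95% interval -0.20 to 0.0037; limma adjusted p = 0.420). Ndufa10 (-0.13 ± 0.08, adjusted p = 0.513) and Ndufa5 (0.09 ± 0.06, adjusted p = 0.523), also accessory subunits, differed in opposite directions without passing. For Ndufa3 a dimmer probe set had a change of -0.11, opposite to that of the brightest.

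Complex II, succinate dehydrogenase, links the citric acid cycle to the chain, and each of its 4 subunit genes was bright enough to be tested. None was called, and the median change was 0.01, with 2 members above and 2 below 0. Sdhb, the iron-sulphur subunit, was at 3101.5, 3538.7 and 3793.0 in the lowest, median and highest 2-month mouse and at 2565.6, 3246.3 and 3683.0 at 15 months. The older group thus reached lower but overlapped with the younger, and 3 of its 14 mice were above the 2-month mean (log2 change -0.11 ± 0.06, 95% interval -0.23 to 0.0018, limma adjusted p = 0.412). Sdha, the flavoprotein that oxidises succinate, was at 886 ± 89.7 (SD, n = 9) at 2 months and 917 ± 67.5 (SD, n = 14) at 15 months (log2 change 0.05 ± 0.06, adjusted p = 0.757 by limma, or 0.09 without 2-month replicate 8, its highest 2-month value). The membrane anchor Sdhd had the same estimate of 0.05 ± 0.06 (adjusted p = 0.763).

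Complex III, the cytochrome bc1 complex, was represented by 8 members, of which 6 had changes below 0 and none was called. The median was -0.01 and the range -0.12 to 0.05, with both ends held by the core proteins. Uqcrc1 was at 3758.1, 4077.8 and 4652.5 in the lowest, median and highest 2-month mouse and at 3125.6, 3741.5 and 4634.9 at 15 months. The highest mice of the ages were alike and the older group extended lower (log2 change -0.12 ± 0.06, 95% interval -0.25 to 0.0093, limma adjusted p = 0.439). Uqcrc2, its partner, had a change of 0.05 ± 0.06 (adjusted p = 0.773) and Uqcrh, the hinge protein, of -0.05 ± 0.05 (adjusted p = 0.689).

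Complex IV, cytochrome c oxidase, had the highest median of the complexes, 0.07, with 9 of its 12 tested members above 0 and none called. These include 4 tissue forms, described below, with a median of 0.14 and each above 0. The other 8 had a median of 0.05, with 5 above and 3 below 0. Cox6c, a small nuclear-encoded subunit, was at 6447.8, 7707.7 and 8821.1 in the lowest, median and highest mouse of 2 months and at 7143.0, 8039.4 and 9937.2 at 15 months. Its ranges overlapped, while 13 of the 14 older mice were above the 2-month mean (log2 change 0.14 ± 0.06, 95% interval 0.01 to 0.26, limma adjusted p = 0.350). Cox7a2, the broadly expressed form of subunit 7a, had a change of 0.08 ± 0.04 (adjusted p = 0.423), with 7035.0, 7489.1 and 8002.4 at 2 months and 7106.8, 7860.8 and 8936.3 at 15 months. The lowest mice of the ages were alike, and 11 of the 14 older mice were above the younger mean. Cox6b1, a subunit facing the intermembrane space, gave the lowest estimate of any tested member, from a dim probe set (signal 197 ± 53.7 at 2 months and 162 ± 41.8 at 15 months, log2 change -0.24 ± 0.15, adjusted p = 0.515). Cox4i1, the broadly expressed form of a regulatory subunit, was at 376 ± 56.5 and 344 ± 72.2 (log2 change -0.13 ± 0.11, adjusted p = 0.645), and a dimmer probe set of it had a change of 0.07.

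Several subunits of complex IV exist as tissue forms that are typical of heart and skeletal muscle or of testis, and 4 of the 7 listed were tested here: Cox6a2, Cox8b, Cox6b2 and Cox8c. None was called and the 4 estimates were above 0, from 0.0048 (Cox8c, whose sign depended on single mice and was negative, -0.05, without the 4 arrays of lowest 99th percentile) to 0.29 (Cox6b2), with standard errors whose median, 0.13, was larger than the 0.07 of the other members of complex IV. The estimate of Cox6b2 rested on single mice, at 0.079 without 2-month replicate 3, 0.19 without 15-month replicate 7 and 0.43 without 2-month replicate 2. Cox6a2, the heart and muscle form of subunit 6a, was at 471 ± 74.2 at 2 months and 516 ± 117 at 15 months (log2 change 0.11 ± 0.12, limma adjusted p = 0.763). Markers of muscle had a summed signal over 7 genes of 666.3 to 952.0 at 2 months and 674.0 to 913.0 at 15 months, with 0 of 3 tested genes called. The other probe sets of Cox6b2 (mean signals 51.9 and 24.2), Cox8b (30.7) and Cox8c (6.4) were too dim to be tested. Each tissue form was thus read from a single probe set. Cox6b2 and Cox8b were each highest in the same mouse of either age, 15-month replicate 7 (380.1 and 330.4) and 2-month replicate 2 (277.8 and 290.3). The same mice had the highest average of complex IV in their age group, 0.20 and 0.18. That average includes both genes, so it is no separate observation. These mice also had the highest summed signals of choroid plexus markers (11477.1 and 10523.4) and of meninges markers (11904.3 and 9590.0). With the mean of the choroid plexus markers as a covariate the change of Cox6b2 was 0.075 ± 0.18 (SE) and the median of complex IV 0.07.

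Complex V, ATP synthase, had 13 tested members, 7 below and 6 above 0, none called, with a median of -0.02. The 4 tested subunits of the catalytic F1 part lay between -0.04 (Atp5c1, the central rotor) and 0.02 (Atp5e, whose sign depended on single mice and which was at -0.05 when array brightness was a covariate). Atp5md, a small protein of the membrane part of the enzyme, had the lowest p of any tested subunit. It was at 7447.6, 8211.6 and 9353.9 in the lowest, median and highest 2-month mouse and at 7664.1, 9121.7 and 11244.5 at 15 months. Several older mice were above the whole younger range, yet the lowest of both ages were alike and 8 of the 14 lay inside the younger range (log2 change 0.16 ± 0.06, 95% interval 0.04 to 0.29, limma adjusted p = 0.255). Atp5l, subunit g of the membrane part, had a change of 0.08 ± 0.06 (adjusted p = 0.632), and Atp5g1, a gene of the rotating c ring, the lowest of the complex at -0.08, or -0.018 without 15-month replicate 13.

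Cycs, the mobile carrier between complexes III and IV, was at 366.5, 441.9 and 551.5 in the lowest, median and highest 2-month mouse and at 347.2, 443.1 and 629.4 at 15 months. The medians were nearly the same and the older group spread farther on both sides (log2 change 0.03 ± 0.10, limma adjusted p = 0.912).

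**Figure D3:**
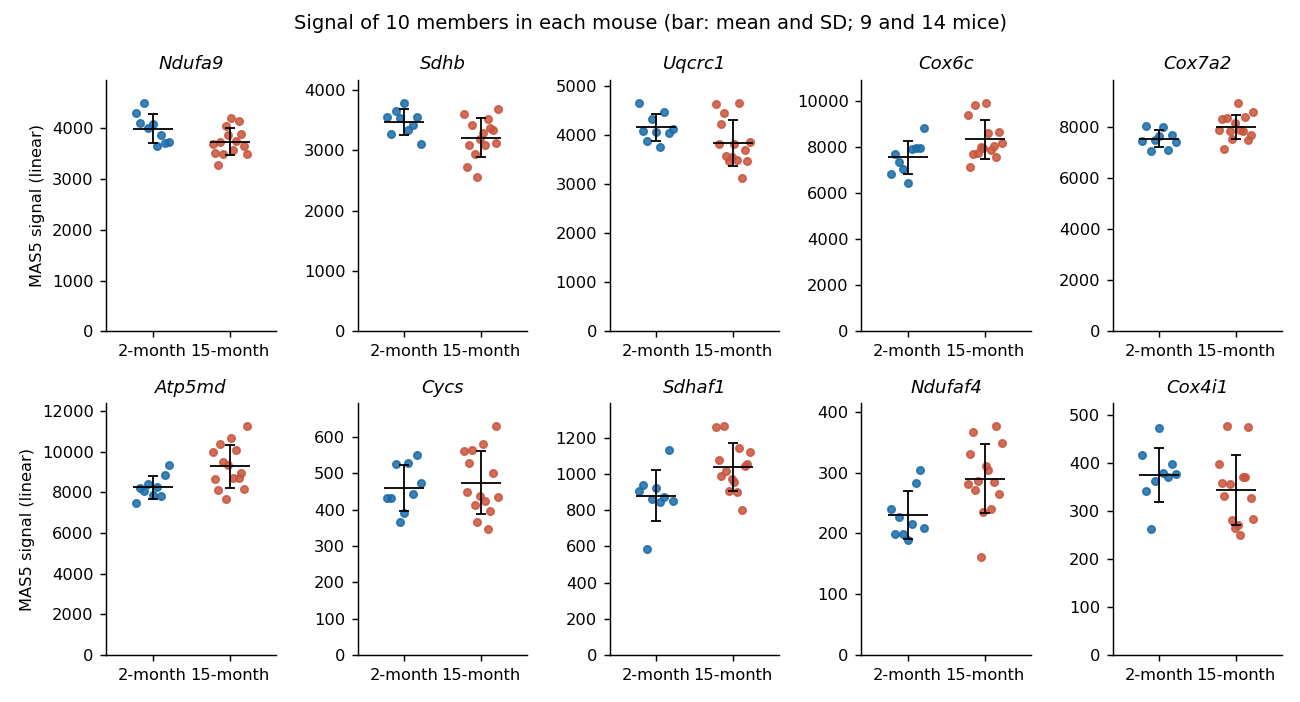
MAS5 signal (linear, vertical axes starting at 0) of 10 members in each mouse, with 9 mice of 2 months in blue and 14 of 15 months in red; bars are the mean and SD. The ages overlap in every panel, and the largest shifts on the log2 scale are those of Ndufaf4, from a mean of 230 to 290, and Sdhaf1, from 880 to 1035.

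Among the tested members, the largest estimates towards higher signal at 15 months apart from Cox6b2 were those of assembly factors, which were named after their values were seen. Ndufaf4, needed to build complex I, was at 189.4, 216.3 and 304.1 in the lowest, median and highest 2-month mouse and at 161.4, 284.9 and 376.3 at 15 months. In 13 of 14 older mice it was above the younger mean, but the lowest value of all also belonged to an older mouse (log2 change 0.31 ± 0.11, 95% interval 0.08 to 0.54, limma adjusted p = 0.255). Leaving out single mice gave a limma adjusted p of 0.0954 (without 15-month replicate 6, that lowest mouse) to 0.393. Sdhaf1, which helps insert iron-sulphur clusters into complex II, was at 585.6, 872.3 and 1132.4 and at 797.9, 1030.2 and 1262.9, also with 13 of 14 above (log2 change 0.24 ± 0.09, adjusted p = 0.250). The other pair went the opposite way by little, with Ndufaf1 at -0.06 and Sdhaf2 at -0.05. None of the 4 passed.

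The 7 members too dim to be tested were Ndufa1, Ndufa12, Ndufc2, Cox5a, Cox7a1, Cox8a and Atp5j2, with mean signals between 23.8 and 72.5. Without the filter on dim probe sets Ndufa1 had the lowest p of these (59.0 ± 36.5 at 15 months and 93.4 ± 30.5 at 2 months, log2 change -0.64 ± 0.23, limma adjusted p = 0.347). Whether the low signals of the 7 come from the probes or from little RNA was not tested. The same holds for dim members that were tested, such as Cox4i1 and Cox6b1. Another 10 probe sets were annotated with a member's symbol and other symbols, so no gene is named for them. Of these 9 were tested and 0 called, with changes from -0.06 to 0.21. A further 9 probe sets, of 7 members, passed the brightness filter, of which 0 were called and 6 had the sign of the brightest. The probe sets of 12 of the 68 tested members carry the suffix by which the array design marks sequence families, so related sequences can add to their signal. These were Ndufa3, Ndufb5, Uqcrb, Uqcrc2, Cox4i1, Cox6a1, Cox6b2, Cox6c, Atp5d, Atp5g2, Atp5md and Sdhaf1.

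Levels of whole complexes varied more between mice than between ages. Averaged over its tested members, a complex's level in a mouse, given as the log2 difference from the mean of all mice, ran from -0.15 to 0.14 at 15 months and from -0.04 to 0.09 at 2 months for complex I. It ran from -0.13 to 0.09 and from -0.10 to 0.11 for complex II, and from -0.16 to 0.11 and from -0.09 to 0.11 for complex III. For complex IV the ranges were -0.11 to 0.20 at 15 months and -0.17 to 0.18 at 2 months. For complex V they were -0.15 to 0.17 and -0.24 to 0.15. The 15-month minus 2-month difference of these averages was -0.02 for complexes I and III, -0.01 for complex II, 0.05 for complex IV and -0.0017 for complex V, each smaller than the SD between mice of the same age. The average of complex IV includes the 4 tissue forms, whose estimates were each above 0.

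**Figure D4:**
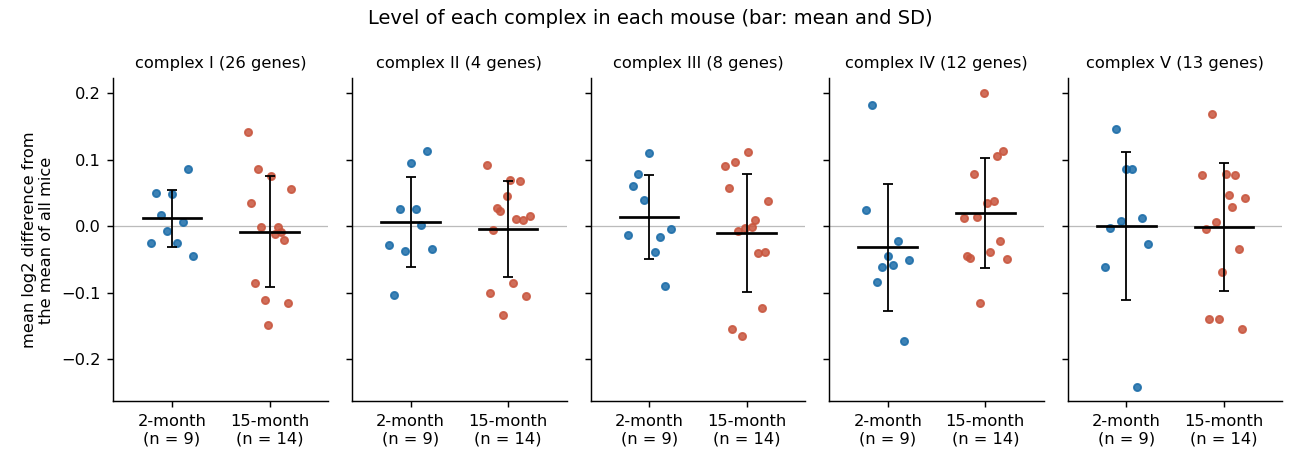
Level of each complex in each mouse (vertical axis, mean over the tested members of the log2 difference from the mean of all 23 mice), with 9 mice of 2 months in blue and 14 of 15 months in red; bars are the mean and SD. The ages overlap in each panel, and within an age the mice are far apart, from -0.24 to 0.15 in complex V at 2 months.

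Some mice were low or high in several complexes at once. In 15-month replicate 6 each of the 5 complexes was below the mean of all mice, between -0.16 and -0.11. In 15-month replicates 1, 4 and 8 each complex was above it. The 15-month replicate 7 was at -0.15 for complex I and at 0.20 for complex IV, an average that includes its high Cox6b2 and Cox8b. The 4 arrays of lowest 99th percentile (6622.0 to 6965.7; 15-month replicates 3 and 12, 2-month replicates 7 and 8) had a mean of -0.10 for complex III and of -0.10 for complex V, against 0.02 and 0.02 on the other 19 arrays. Complex IV was at -0.07 against 0.01, complex I at -0.0030 against 0.00063 and complex II at 0.03 against -0.0064. The part of array brightness in these levels was not tested. The 99th percentile itself was 7905 ± 549 (SD, n = 14) at 15 months and 7670 ± 514 (SD, n = 9) at 2 months (exact two-sided permutation test, p = 0.318, adjusted over 3 array measures 0.576).

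The spread between mice was larger at 15 months for most members. Of the 68 tested members 52 (76.5%) had a larger SD of log2 signal at 15 than at 2 months, with medians of 0.16 and 0.13, where 58.2% of all tested probe sets did. Without 15-month replicate 6 the count was 48 (70.6%), against 57.1% of all. The SD of the average of complex I was 0.08 at 15 months and 0.04 at 2 months. The difference in spread was noticed in the data and was not tested, and the members share the same mice and arrays.

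In the rest of the pathway 0 genes were called in each of 5 lists. Of 15 tested genes of the citric acid cycle and pyruvate dehydrogenase 8 were below 0, with a median change of -0.0091. Fh1, the fumarase of the cycle, was at 1527 ± 102 at 2 months and 1391 ± 88.6 at 15 months (log2 change -0.13 ± 0.05, limma adjusted p = 0.254). Of 9 assembly factors from a separate list 5 were below 0, the lowest p being that of Foxred1, an assembly factor of complex I (log2 change -0.18 ± 0.07, adjusted p = 0.275). For 7 tested regulators of mitochondrial biogenesis and mitochondrial DNA the changes lay between -0.11 (Polrmt, the mitochondrial RNA polymerase) and 0.05. Of 13 genes of glycolysis 5 were below 0, the lowest p being that of Ldha, a lactate dehydrogenase subunit (log2 change -0.09 ± 0.04, adjusted p = 0.419).

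Among 11 tested carriers, porins and enzymes of energy transfer, Slc25a5, an exchanger of ADP and ATP across the inner membrane, had the lowest p of the 5 lists. Its signal was 927.2, 1116.4 and 1291.7 in the lowest, median and highest 2-month mouse and 785.4, 993.0 and 1101.4 at 15 months. None of the 14 older mice was above the 2-month mean, and the ranges still overlapped (log2 change -0.23 ± 0.06, 95% interval -0.36 to -0.10, limma adjusted p = 0.120). This probe set of Slc25a5 also carries the suffix of sequence families, so related sequences can add to its signal. A dimmer probe set of the gene had a change of -0.15 (limma adjusted p = 0.718). The list as a whole had a median of 0.0086, with 5 of 11 below 0.

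**Figure D5:**
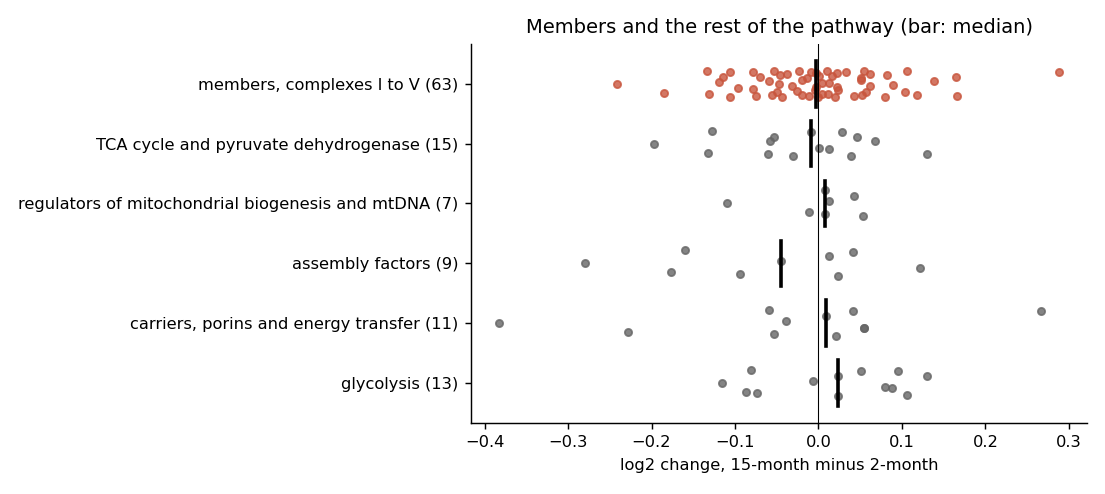
Log2 change between the ages (horizontal axis, 15-month minus 2-month) of the 63 tested subunits of complexes I to V in red and of the tested genes of 5 lists of related metabolism in grey, 1 point per gene with the median as a bar. The medians lie between -0.04 and 0.02, and Slc25a5 lies at -0.23.

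The change with age was also set beside the promoter letters. The 11 members with the NRF1 core, each bright enough to be tested, had a median change of -0.04 (range -0.12 to 0.31) with 7 below 0. Members whose window lacked it had a median of -0.00058 (range -0.24 to 0.29) with 22 of 43 below 0. Of all tested probe sets 55.0% were below 0. The difference between members with and without the core was not tested. The tissue label matched its markers where these were bright: Snap25, a synaptic protein of neurons, was at 12330 ± 1245 at 2 months and 12552 ± 1485 at 15 months, and Wfs1, typical of field CA1, at 1812 ± 363 and 1688 ± 239, while Prox1 of the dentate gyrus was dim, at 92.7 ± 37.1 and 88.4 ± 28.6. The summed signal of 8 neuronal markers was 29687.5 to 35672.3 at 2 months and 29992.1 to 36599.7 at 15 months. Of the other marker lists, microglia had 3 of 7 and endothelium 1 of 5 tested genes called higher at 15 months. The endothelial gene called was Slc2a1 (0.55), while Cldn5 (0.02), Pecam1 (0.0086), Flt1 (0.11) and Tek (-0.14) did not pass. The 3 microglial genes called were Ctss, C1qb and Ly86. C1qa and Aif1 were higher without passing (0.21 and 0.48), while Csf1r (0.01) and Cx3cr1 (0.0056) were nearly unchanged. The summed signal of the 7 microglial genes, in which bright genes such as Ctss weigh most, was 5035.7 to 6728.5 at 2 months and 6787.7 to 8119.7 at 15 months. The part of this shift in the members' signals was not tested. Choroid plexus markers had summed signals of 268.0 to 10523.4 at 2 months and of 409.8 to 11477.1 at 15 months, and 0 members were called with their mean in the model.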

How the data were processed

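The authors deposited linear intensities, namely a MAS5 signal for each probe set on each array; the submitters' processing notes name MAS5, with version and settings not given in the sources used here. Of 12488 probe sets 66 are controls. Gene names came from the platform annotation (1 symbol for 10833 of 12422 probe sets other than controls, several for 396 and none for 1193), and each gene stood for its probe set of highest mean signal. Tests of probe sets used log2(signal + 16), which understates changes of dim genes, apart from alternatives with an offset of 1 or 64. Probe sets above the 40th percentile of mean log2 value (signal 91.7) were tested, 7453 in all, by the moderated test of limma (version 3.58.1, R 4.3.3; eBayes run with trend and robust options); p-values were two-sided, measure the spread between these mice, and were Benjamini-Hochberg adjusted over all tested probe sets at a false discovery rate of 0.05. The fit was tested on simulated data. Array measures, taken on linear signal, were compared by exact permutation over 817190 regroupings (numpy 2.4.6, Python 3.11.15). Groups came from the age in the labels, which name no batch. Array medians were 154.9 to 188 and the number of arrays limits the precision. The genes followed, the lists and the alternatives were chosen with earlier results of these data known. Named members were those called, the 3 of lowest p per complex, Cycs, Cox4i1, Cox4i2, Cox6a2 and Sdha (Cox4i2 was not analysed here), with the lowest or highest of a group and the gene of lowest p per pathway list. Others were chosen after their values were seen. Alternatives covered the offset, filter, normalisation, variance model, probe sets, covariates, test and arrays used. Promoter windows came from RefSeq (GRCm38.p6).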

Additional observations from a re-analysis of the deposited data

Results flagged for a closer look

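Values of the 9 mice of 2 months were screened for a mouse far from the others, in 41 genes and averages, and 2 stood out; chance alone marks about 1 in 20 such groups. Sdha was at 1103.6 in 2-month replicate 8, while the next highest mouse of that age was at 905.6, and without replicate 8 the log2 change of Sdha was 0.09 in place of 0.05 (limma adjusted p = 0.449). Sdhaf1 was at 585.6 in 2-month replicate 3, while the next lowest was at 846.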

How the results depend on the processing

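No member was called, higher or lower, under any of 36 alternatives, 23 of which left out 1 mouse, and no gene of the 5 pathway lists under those fitted with limma. The count of members below 0 was 30 to 40 without single mice and 26 (median centring) to 41 (quantile normalisation) otherwise. Medians of the complexes moved by less than the SD between mice. The median of the 4 assembly factors was 0.09, but -0.053 with the filter at the 60th percentile, which left out Ndufaf4. Signs turned for Ndufa3 (-0.0045 with the mean of its probe sets), Cox8c (-0.0068 with the 99th percentile as a covariate, -0.045 without the 4 arrays of lowest 99th percentile) and Atp5e (-0.052 and -0.024 in the same settings). Without single mice Cycs was at -0.0057 to 0.065, Cox8c at -0.035 to 0.033 and Atp5e at -0.059 to 0.085. Leaving out 1 mouse moved the change of 16 of 34 named genes by over 1.5 times, 3 of them across 0, and called none. No paired analysis was possible because replicate numbers only name the mice. Dim probe sets, signal over background and 23 arrays limit what can be seen.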
